A study of Mus musculus with 6 samples.

Results

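The genes described here encode subunits of neurotransmitter receptors, the membrane proteins with which neurons detect acetylcholine, glycine, GABA and glutamate. They were chosen by gene symbol, as the genes whose only platform symbol was that of a GABA-A, GABA-B, glycine, AMPA, NMDA, kainate, metabotropic glutamate, nicotinic or muscarinic receptor subunit. The choice found 60 of the 18193 genes measured, read by 119 probe sets. Not every known subunit is among the 60. Their RNA was measured on 6 mouse Affymetrix arrays that read mainly the 3′ end of transcripts. The cells were neuralized embryoid bodies, suspension aggregates grown from mouse embryonic stem cells and described by the labels as neural progenitors. All 6 cultures came from a stem cell line in which the Rosa26 promoter drives a Gli1-FLAG transgene without interruption, so the groups with and without stimulation both carried this effector of hedgehog signalling. The 3 RA cultures received 500 nM all-trans retinoic acid for 3 days. The 3 Ag1.3 cultures received the same retinoic acid for 3 days together with 50 nM Ag1.3, which activates Smoothened, the protein that passes the Sonic hedgehog signal into the cell. Cultures of the same replicate number were grown in parallel, so the design holds 3 pairs, and it asks which genes respond to stimulation of the pathway. All 11 neural progenitor markers measured were above background.

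Ligand-gated receptors are assembled from several subunits, and the subunits a cell makes set which transmitter opens the channel, which ions pass and how fast it closes. Nicotinic, glycine and GABA-A receptors are pentamers of related subunits, ionotropic glutamate receptors are tetramers, and GABA-B, metabotropic glutamate and muscarinic receptors act through G proteins. Young neurons begin to make such receptors while they differentiate, before most synapses exist, and motor neurons of the spinal cord use acetylcholine as their own transmitter.

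Intensities are linear and in the arrays' own units. Array medians ran from 48.68 to 52.55, so the arrays had a similar overall level. Control probe sets against Trp genes, with no matching spike, gave 18 intensities. Of these the lowest was 4.02 and the highest 20.71, and a gene whose group mean was at or below 20.71 is called close to background. Fold changes are of Ag1.3 over RA on the log2(intensity + 16) scale, which understates changes of low genes. They come from limma with a term for each of the 3 pairs (the replicate block). Adjusted p-values are Benjamini-Hochberg values taken across the whole set of 18193 genes, and 0.05 is the threshold. Bulk RNA cannot separate more cells of a type from more RNA per cell.

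No receptor subunit gene passed the threshold in either direction. In the same fit 252 of 18193 genes passed, which is 1.39%. The lowest adjusted p among the 60 genes, 0.0513 in limma's test, belonged to the NMDA receptor gene Grin2a, and Chrnb4 of the nicotinic family followed at 0.0515. An unadjusted p under 0.05 was found for 9 of the 60 genes, a share of 15.0%, against 14.9% of all genes. Of these 9 genes, 8 were higher with Ag1.3 (Chrna2, Chrna5, Chrnb2, Chrnb4, Gabbr1, Glra1, Grin2a and Grm4) and 1 was lower (Chrnb1). The intensities of the groups did not overlap for 4 genes, Grin2a, Grm4, Chrnb4 and Chrnb2, all higher on Ag1.3 arrays, which is 6.67% of the members against 6.45% of all genes. No member had all Ag1.3 arrays below all RA arrays, where 5.35% of all genes did. The direction was the same in all 3 pairs for 18 members, or 30.0%, against 36.7% of all genes. None of these shares was far above that of all genes, but they include genes close to background, which were more frequent among the members. Among genes above the median probe set, 9 of 19 members had an unadjusted p under 0.05, against 2466 of 11441 genes. There 4 of the 19 passed the threshold, against 8.30% of the genes tested. Whether the members differ from other genes of similar level was not tested.

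The fold changes of the 60 genes ran from -0.42 to 0.58 with a median of 0.04, where the median of all genes was -0.01. In all, 37 were above 0 and 23 below, but with arrays scaled to the hybridization spikes 21 were above 0 and the members' median was -0.04, when the median of all genes was -0.16. On the log2(intensity + 16) scale and by the probe set that represents the gene, no member had a change of 2-fold or more, and 119 of all genes did, a share of 0.654%. Many of the receptor genes were barely detected. Of the 60, 25 were close to background in both groups, a share of 41.7% against 18.7% of all genes, and Grin2a and Grik1 were close to it in RA alone. The other 33 genes were above background in both groups, with 17 fold changes above 0 and 16 below and a median of 0.04. For all 33 the 95% interval lay within a 2-fold change either way on this scale, and for 27 of them within a 1.5-fold change.

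**Figure D1:**
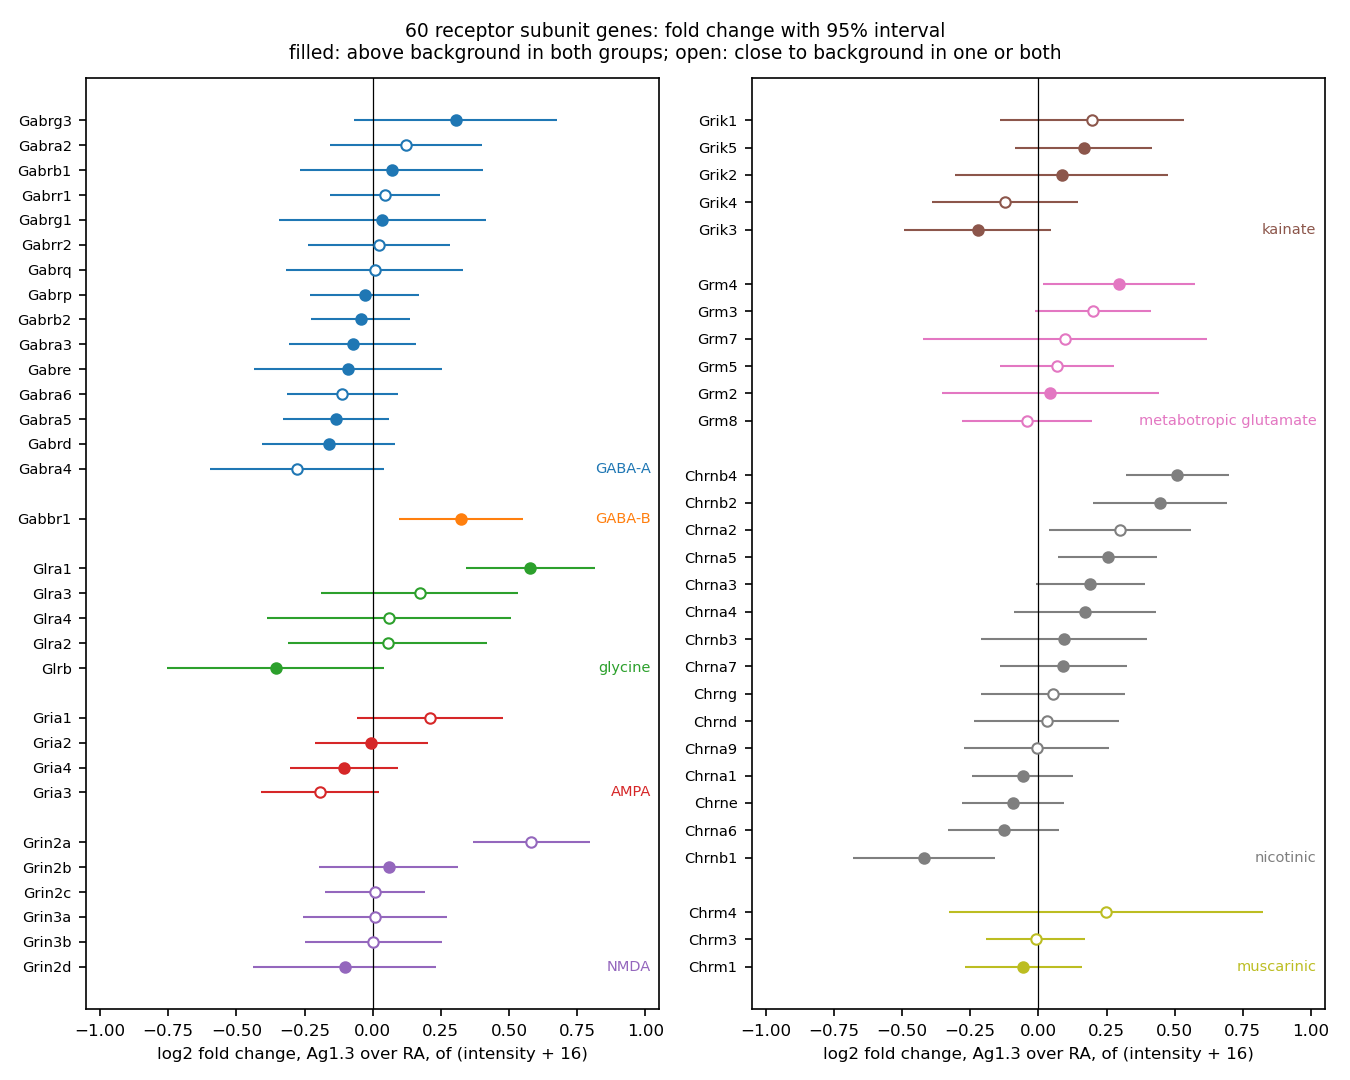
Log2 fold change (x axis, Ag1.3 over RA, of intensity + 16) of the 60 receptor subunit genes, grouped by class, with the 95% interval of limma's paired fit over 3 pairs as a line. Filled points are the 33 genes above background in both groups, and most intervals cross 0. Grin2a and Glra1 (both 0.58) stand farthest to the right and Chrnb1 (-0.42) farthest to the left.

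Nicotinic receptors, the cation channels opened by acetylcholine, were the class with most members of unadjusted p under 0.05 by limma, 5 of 15. Of all genes 14.9% had such a p. With GABA-A this class was also the largest, and whether it differs from other genes was not tested. Of the 5 genes, Chrnb4, Chrnb2, Chrna5 and Chrna2 were higher with Ag1.3 and Chrnb1 was lower. Close to background in both groups were 4 of the 15 genes, Chrna2 among them. The 10 neuronal subunits had a median fold change of 0.18, with 8 above 0, but with arrays scaled to the spikes their median was 0.01 and 5 were above 0. The 5 subunits known from muscle, Chrna1, Chrnb1, Chrnd, Chrne and Chrng, had a median of -0.06, with 2 above 0. Whether the neuronal and the muscle subunits differed was not tested.

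Chrnb4 encodes the β4 subunit, which forms ganglionic-type channels with α3. Its intensities were 181, 149 and 152 on RA arrays 1 to 3 and 252, 224 and 231 on Ag1.3 arrays 1 to 3. The lowest Ag1.3 array was thus above the highest RA array, and the pairs differed by 0.44, 0.54 and 0.55 on the log2 scale. The means were 161 ± 17.6 and 235 ± 14.5 (SD, n = 3), and the fold change was 0.51 (SE 0.075, 95% interval 0.32 to 0.70, adjusted p = 0.0515 by limma). It passed the threshold in 3 of 13 alternative settings, with adjusted p from 0.0061 to 0.25. A further Chrnb4 probe set read 141, 145 and 135 on RA arrays and 199, 148 and 156 on Ag1.3 arrays. Its groups did not overlap either, with a smaller fold change of 0.23 (unadjusted p = 0.083).

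Chrna5 and Chrna3 lie beside Chrnb4 in 1 cluster of the mouse genome, in the order Chrna5, Chrna3, Chrnb4, and the RefSeq models of Chrna5 and Chrna3 overlap. Chrna5 encodes an accessory subunit that joins α3β4 and α4β2 channels. It read 72.8, 75.0 and 46.1 on RA arrays and 92.2, 92.1 and 56.8 on Ag1.3 arrays. Every pair was higher with Ag1.3, although the groups overlapped because pair 3 was low in both. The fold change was 0.25 (SE 0.073, interval 0.07 to 0.44, adjusted p = 0.20 by limma), and its second probe set gave 0.22. Chrna3, which encodes the α3 subunit that binds acetylcholine together with β4, read 187, 155 and 116 on RA arrays and 208, 171 and 147 on Ag1.3 arrays. It too was higher in every pair with overlapping groups, and its fold change was 0.19 (SE 0.080, interval -0.01 to 0.39, adjusted p = 0.36 by limma). The other Chrna3 probe sets gave 0.36 (unadjusted p = 0.0054) and 0.18, the last slightly lower with Ag1.3 in pair 2 (-0.01). By the probe sets that represent them, all 3 genes of the cluster were thus higher in all 3 pairs, none past the threshold. Of all genes, 36.7% had the same direction in all 3 pairs. With arrays scaled to the spikes the fold changes were 0.33 for Chrnb4, 0.10 for Chrna5 and 0.02 for Chrna3.

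Because the 3 genes of the cluster had the same direction in every pair by those probe sets, the 250 bases before their RefSeq starts are shown (GRCm38.p6, 5′ to 3′ on the gene's strand). Capitals mark each CANNTG, the E box core bound by basic helix-loop-helix factors. The windows are chr9:55048545-55048794 on the minus strand for Chrnb4, chr9:55026563-55026812 on the minus strand for Chrna3, and chr9:54980630-54980879 and chr9:54981238-54981487, both on the plus strand, for the pair of Chrna5 starts.
Chrnb4: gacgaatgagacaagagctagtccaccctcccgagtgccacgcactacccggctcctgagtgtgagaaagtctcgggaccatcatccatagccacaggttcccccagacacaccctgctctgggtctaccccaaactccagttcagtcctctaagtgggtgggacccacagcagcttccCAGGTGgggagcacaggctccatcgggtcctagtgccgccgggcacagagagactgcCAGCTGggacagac
Chrna3: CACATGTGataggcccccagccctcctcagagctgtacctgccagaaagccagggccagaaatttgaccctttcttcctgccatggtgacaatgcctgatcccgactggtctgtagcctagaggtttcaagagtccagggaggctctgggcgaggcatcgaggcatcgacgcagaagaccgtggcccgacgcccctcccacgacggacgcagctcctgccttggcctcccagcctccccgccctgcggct
Chrna5, window 1: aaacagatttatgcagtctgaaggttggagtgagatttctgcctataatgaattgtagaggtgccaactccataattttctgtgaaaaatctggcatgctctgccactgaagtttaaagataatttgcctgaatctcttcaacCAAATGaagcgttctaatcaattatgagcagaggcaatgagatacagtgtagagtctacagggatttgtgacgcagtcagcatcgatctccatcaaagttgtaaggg
Chrna5, window 2: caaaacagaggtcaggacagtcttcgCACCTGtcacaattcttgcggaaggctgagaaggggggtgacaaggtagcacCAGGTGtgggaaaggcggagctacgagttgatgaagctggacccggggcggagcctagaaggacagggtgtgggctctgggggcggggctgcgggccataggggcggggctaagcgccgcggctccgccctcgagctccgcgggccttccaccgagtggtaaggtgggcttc

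The Chrnb4 window held 2 E boxes at a GC content of 61.2%. The Chrna3 window held 2 that share letters, at the far end from the start, with a GC content of 63.2%. The first Chrna5 window, at 40.0% GC, held 1 E box, and the second, at 65.2% GC, held 2. An E box was present in 66.2% of 32851 such windows in the RefSeq table, whose median GC content was 52.4%, so its presence does not set these windows apart. The GC box GGGCGG, counted on both strands, occurred 4 times in the second Chrna5 window and 1 time in the Chrna3 window, and 32.7% of all windows held it. The homeodomain core TAAT occurred 5 times in the first Chrna5 window and in none of the other 3, against 54.9% of all windows. The Gli recognition sequence TGGGTGGTC was in none of the 4 windows, and 0.225% of all windows held it. A match of letters is a description and not a binding site, and 45 of the 60 members had a window in the table.

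Chrna4 and Chrnb2 encode α4 and β2, which pair in the most widespread nicotinic receptor of the brain. Chrnb2 read 55.4, 36.0 and 37.3 on RA arrays and 69.4, 65.2 and 56.4 on Ag1.3 arrays. The groups did not overlap, though the highest RA array lay close to the lowest Ag1.3 array. The means were 42.9 ± 10.8 and 63.6 ± 6.67 (SD, n = 3), with a fold change of 0.45 (SE 0.098, interval 0.20 to 0.69, adjusted p = 0.12 by limma). Of 13 alternatives it passed in 1, the test restricted to genes above the median probe set (adjusted p = 0.024, range over alternatives 0.024 to 0.49). Its second probe set gave 0.18 with overlapping groups, and the third was close to background.

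For Chrna4 the probe sets disagreed. The probe set that represents the gene read 173, 196 and 204 on RA arrays and 211, 249 and 193 on Ag1.3 arrays. These groups overlapped, pair 3 went the other way, and the fold change was 0.17 (SE 0.10, interval -0.09 to 0.43, adjusted p = 0.52 by limma). A second Chrna4 probe set read 103, 111 and 80.0 on RA arrays and 269, 223 and 168 on Ag1.3 arrays. On that probe set every Ag1.3 array was well above every RA array, and the fold change was 1.04 (SE 0.10). When all 34945 probe sets were tested together 319 passed, 0.913% of them, and this was the only 1 of the 119 member probe sets among them (adjusted p = 0.022 by limma). The third Chrna4 probe set gave 0.14 with overlapping groups. The mean over the 3 probe sets gave a fold change of 0.45 (adjusted p = 0.074, range over the gene's alternatives 0.022 to 0.98). The positions of the probe sets along the transcript were not analysed here, and this probe set was singled out after its values were seen. The Chrna4 window of 250 bases held no E box and 3 GC boxes at 74.4% GC, and the Chrnb2 window 1 E box and no GC box at 59.6% GC.

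**Figure D2:**
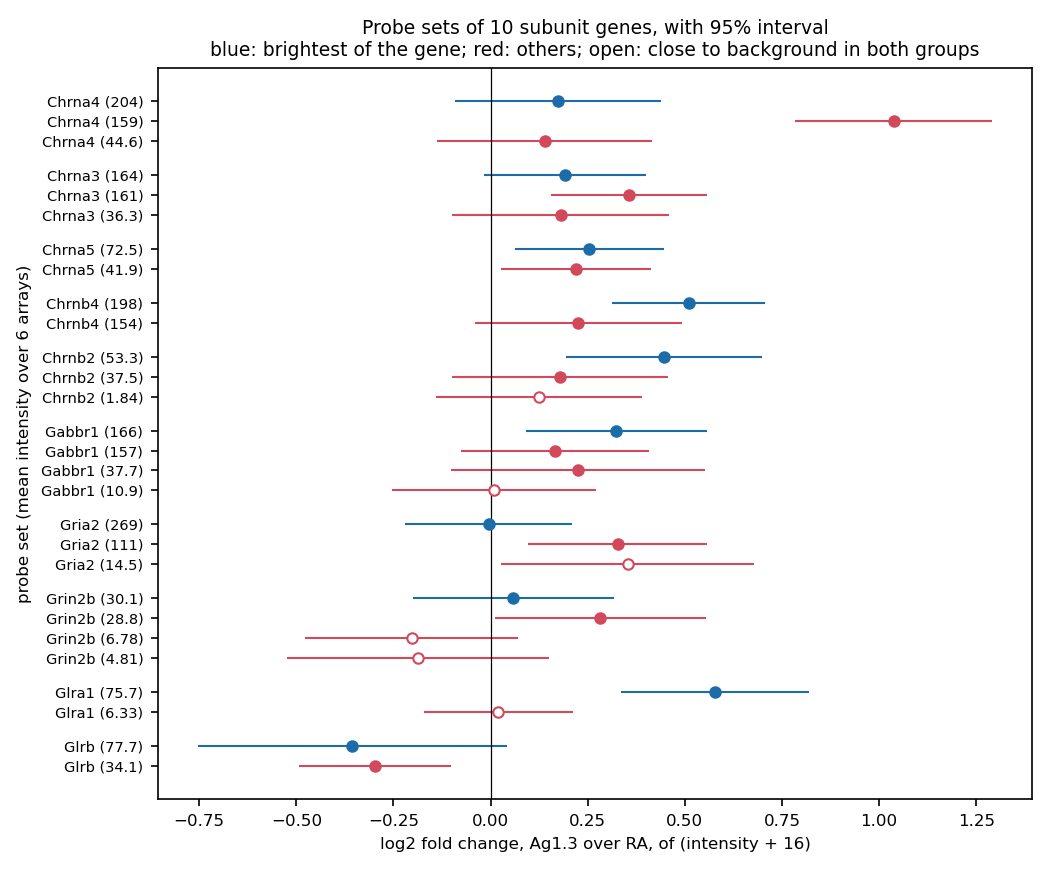
Log2 fold change (x axis, Ag1.3 over RA, of intensity + 16) of each probe set of 10 receptor genes, with its mean intensity over the 6 arrays in brackets and the 95% interval from limma over 3 pairs as a line. Blue marks the probe set that represents the gene, red the others, and open points are close to background in both groups. The second Chrna4 probe set (1.04) stands apart from the other Chrna4 probe sets (0.17 and 0.14), while both Glrb probe sets lie below 0.

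Among the other neuronal nicotinic genes, Chrna7, whose product forms the calcium-permeable homomeric α7 channel, read 190, 223 and 170 on RA arrays and 223, 206 and 193 on Ag1.3 arrays. The groups overlapped and the fold change was 0.09 (interval -0.14 to 0.33). The striatal-type subunit genes Chrnb3 and Chrna6, neighbours in the genome, were little above background and had fold changes of 0.09 and -0.13, the latter lower in all 3 pairs. Chrna2 was close to background in both groups, at a fold change of 0.30 (adjusted p = 0.27 by limma), and is named because it belongs to the 9 genes of low unadjusted p. Chrna9, known from hair cells, was close to background at -0.01.

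Chrnb1 encodes the β1 subunit of the muscle receptor and was the only 1 of the 9 genes that was lower with Ag1.3. It read 43.0, 58.4 and 102 on RA arrays and 27.7, 32.1 and 86.5 on Ag1.3 arrays. Each pair was lower with Ag1.3, but the pairs differed more than the groups, so the groups overlapped. The fold change was -0.42 (SE 0.10, interval -0.68 to -0.16, adjusted p = 0.15 by limma), and it passed in 2 of 13 alternatives (range 0.0010 to 0.89). The other subunits of the muscle receptor had fold changes of -0.06 for Chrna1, -0.09 for Chrne, 0.03 for Chrnd and 0.05 for Chrng, and the last pair, which are neighbours in the genome, were close to background. Of 14 skeletal muscle markers, 8 were close to background in both groups, among them Myod1, Myf5, Actc1 and Myh3. The summed intensity of the 14 was 501 to 797 on RA arrays and 358 to 405 on Ag1.3 arrays, and the 1 marker that fell was Pax7, which dorsal neural progenitors also express. The part of muscle cells in the Chrnb1 values was not tested.

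**Figure D3:**
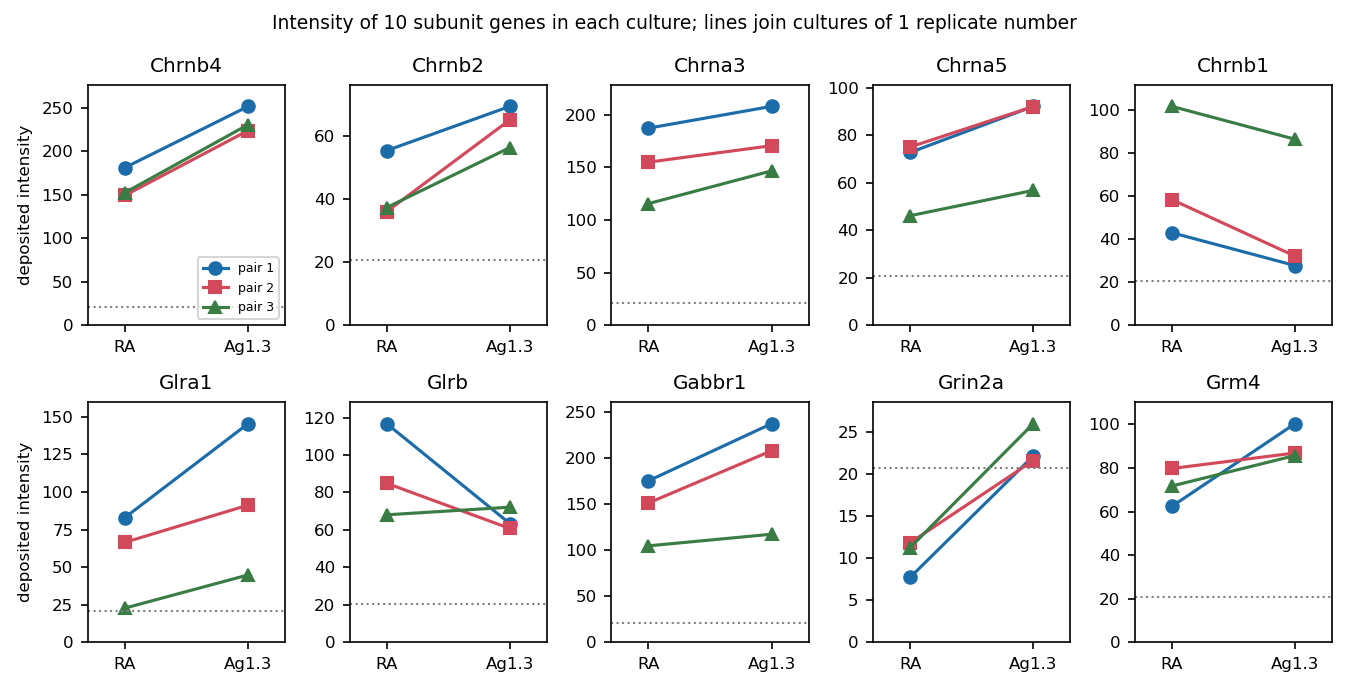
Deposited intensity (y axis, linear, from 0) of 10 receptor genes on each array, RA on the left and Ag1.3 on the right of each panel, with a line for each pair and the background limit of 20.71 dotted. Chrnb4, Chrnb2, Grin2a and Grm4 have all Ag1.3 points above all RA points, while for Glra1, Gabbr1 and Chrnb1 the pairs lie far apart but share a direction.

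The muscarinic receptors, which couple acetylcholine to G proteins, were represented by 3 genes. Chrm1 read 133, 161 and 152 on RA arrays and 142, 140.3 and 145 on Ag1.3 arrays, with a fold change of -0.06 (interval -0.27 to 0.16). Its groups overlapped, and its other probe set read 1 on all 6 arrays, so the level rests on 1 of the probe sets. Chrm3 and Chrm4 were close to background in both groups, at -0.01 (interval -0.19 to 0.17) and 0.25 (interval -0.33 to 0.82).

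Glycine receptors are chloride channels that carry fast inhibition in the spinal cord and brainstem. Glra1 encodes the α1 subunit of the adult channel and read 83.0, 66.5 and 22.8 on RA arrays and 145, 91.3 and 44.8 on Ag1.3 arrays. Every pair was higher with Ag1.3, by 0.71, 0.38 and 0.65, but pair 3 was low in both groups and the groups overlapped. The means were 57.5 ± 31.1 and 93.8 ± 50.3 (SD, n = 3), and the fold change was 0.58 (SE 0.094, interval 0.34 to 0.81, adjusted p = 0.064 by limma). It passed in 5 of 13 alternatives, with adjusted p from 0.0080 to 0.87, the highest without the replicate block. The other Glra1 probe set was close to background with a fold change of 0.02. Glrb encodes the β subunit that anchors the channel at synapses, and read 117, 84.9 and 68.1 on RA arrays and 63.4, 60.8 and 72.2 on Ag1.3 arrays. Only pairs 1 and 2 were lower with Ag1.3, the groups overlapped, and the fold change was -0.36 (SE 0.16, interval -0.75 to 0.04, adjusted p = 0.39 by limma). The identifier of this probe set carries the suffix that Affymetrix gives to probes that can also match other transcripts. The second Glrb probe set, without that suffix, read 44.5, 38.1 and 35.2 on RA arrays and 31.3, 28.3 and 27.0 on Ag1.3 arrays. There all Ag1.3 arrays were below all RA arrays, at a fold change of -0.30 (adjusted p = 0.20 among all probe sets). The embryonic α2 gene Glra2, Glra3 and Glra4 were close to background in both groups, with Glra3 at 0.17 (interval -0.19 to 0.53).

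The GABA-A receptors, chloride channels opened by GABA, had no gene of low unadjusted p among 15, and their fold changes ran from -0.28 to 0.30 with a median of -0.03. With limma 0 of the 15 passed in the fit described or in any of its 13 alternatives. Only 2 of the 15 were tested in the alternative restricted to genes above the median probe set. Close to background in both groups were 6 genes, Gabra2, Gabra4, Gabra6, Gabrq, Gabrr1 and Gabrr2, with Gabra6 at -0.11. Gabrp encodes the π subunit, known mainly from tissues outside the brain, and read 205, 204.5 and 172 on RA arrays and 211, 184 and 172 on Ag1.3 arrays. Gabrb2, for a β subunit of synaptic receptors, read 80.2, 94.2 and 94.6 on RA arrays and 78.1, 91.8 and 89.5 on Ag1.3 arrays. For both genes the groups overlapped almost completely, with fold changes of -0.03 (interval -0.23 to 0.17) and -0.04 (interval -0.23 to 0.14). Gabrg3 encodes a γ subunit and had the lowest unadjusted p among those higher with Ag1.3, 0.090. It read 17.7, 17.4 and 29.3 on RA arrays and 17.1, 23.2 and 57.9 on Ag1.3 arrays. Its fold change of 0.30 thus rested largely on pair 3, and its genomic neighbour Gabra5 had a fold change of -0.13. Gabrd, for the δ subunit of extrasynaptic receptors, stood at -0.16, Gabre at -0.09, Gabra3 at -0.07, Gabrb1 at 0.07 and Gabrg1 at 0.04. The neighbours Gabra4 and Gabrb1, whose gene models overlap, stood at -0.28 and 0.07.

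Gabbr1 encodes the subunit of the GABA-B receptor that binds GABA, and read 175, 151 and 105 on RA arrays and 237, 208 and 117 on Ag1.3 arrays. Each pair was higher with Ag1.3 and the groups overlapped. The means were 144 ± 35.8 and 188 ± 62.5 (SD, n = 3), and the fold change was 0.32 (SE 0.090, interval 0.10 to 0.55, adjusted p = 0.19 by limma). It passed in none of 13 alternatives (0.058 to 0.88), and the further probe sets gave 0.17, 0.23 and 0.01.

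Of the ionotropic glutamate receptors, AMPA receptors carry fast excitation, NMDA receptors need glutamate, a co-agonist and depolarization to open, and kainate receptors mainly modulate release and excitability. Gria2, whose edited subunit keeps calcium out of AMPA channels, read 253, 294 and 261 on RA arrays and 239, 280.1 and 287 on Ag1.3 arrays. The groups overlapped, and the fold change was -0.01 (interval -0.21 to 0.20). A second Gria2 probe set read 82.2, 94.99 and 112 on RA arrays and 123.1, 114 and 136.5 on Ag1.3 arrays, which did not overlap, at 0.33 (adjusted p = 0.22 among all probe sets). The third, near background, gave 0.35. Gria4 stood at -0.11 (interval -0.30 to 0.09), and Gria1 and Gria3 were close to background in both groups, at 0.21 (interval -0.06 to 0.48) and -0.19 (interval -0.41 to 0.02). Glrb is the gene next to Gria2 in the RefSeq order, and their fold changes were -0.36 and -0.01.

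Grin2a encodes GluN2A, the NMDA receptor subunit that replaces GluN2B in many neurons as they mature. It read 7.74, 11.9 and 11.3 on RA arrays, all within the range of the Trp controls, and 22.2, 21.6 and 26.0 on Ag1.3 arrays, just above that range. The groups did not overlap. The means were 10.3 ± 2.23 and 23.3 ± 2.39 (SD, n = 3), and the fold change was 0.58 (SE 0.085, interval 0.37 to 0.80, adjusted p = 0.0513 by limma). The RA level has only an upper limit, and the average Ag1.3 level was 1.12 times the background limit, an estimate without an error. Grin2a passed in 4 of 12 alternatives, with adjusted p from 0.0062 to 0.29 and fold changes from 0.23 to 1.12 as the pseudocount fell. Grin2b, the subunit gene typical of embryonic neurons, read 27.6, 29.1 and 30.5 on RA arrays and 35.9, 24.5 and 33.2 on Ag1.3 arrays, at 0.06 (interval -0.20 to 0.31). Its groups overlapped, and a further probe set, with groups that did not, gave 0.28 (unadjusted p = 0.044). The other Grin2b probe sets, close to background, gave -0.20 and -0.19. Grin2d stood at -0.10, and Grin2c, Grin3a and Grin3b were close to background in both groups, with Grin3a at 0.01.

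Among the kainate receptor genes no unadjusted p was under 0.05. Grik3 read 83.3, 89.8 and 110 on RA arrays and 75.6, 59.5 and 104 on Ag1.3 arrays. It was lower in each pair with overlapping groups, at -0.22 (interval -0.49 to 0.05, adjusted p = 0.42 by limma, 0.048 to 0.87 over the alternatives). The other Grik3 probe set was close to background in both groups, at -0.04. Grik5, for a subunit that joins others to form high-affinity channels, stood at 0.17 (interval -0.09 to 0.42) and Grik2 at 0.09 (interval -0.31 to 0.48). Grik1, close to background in RA, stood at 0.20, and Grik4 was close to background in both groups.

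Metabotropic glutamate receptors tune release and excitability through G proteins, and 4 of their 6 genes, Grm3, Grm5, Grm7 and Grm8, were close to background in both groups. Grm4, for a receptor that lowers transmitter release, read 62.4, 79.8 and 71.7 on RA arrays and 100.4, 86.9 and 85.7 on Ag1.3 arrays. The groups did not overlap, although pair 2 differed little. The means were 71.3 ± 8.70 and 91.0 ± 8.13 (SD, n = 3), and the fold change was 0.30 (SE 0.11, interval 0.02 to 0.57, adjusted p = 0.31 by limma). Grm3, close to background, was higher in all 3 pairs at 0.20 (interval -0.01 to 0.41, unadjusted p = 0.061), and Grm5 and Grm7 stood at 0.07 and 0.10. Grm2 stood at 0.04, with an SD of 5.75 on RA and 31.3 on Ag1.3 arrays.

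**Figure D4:**
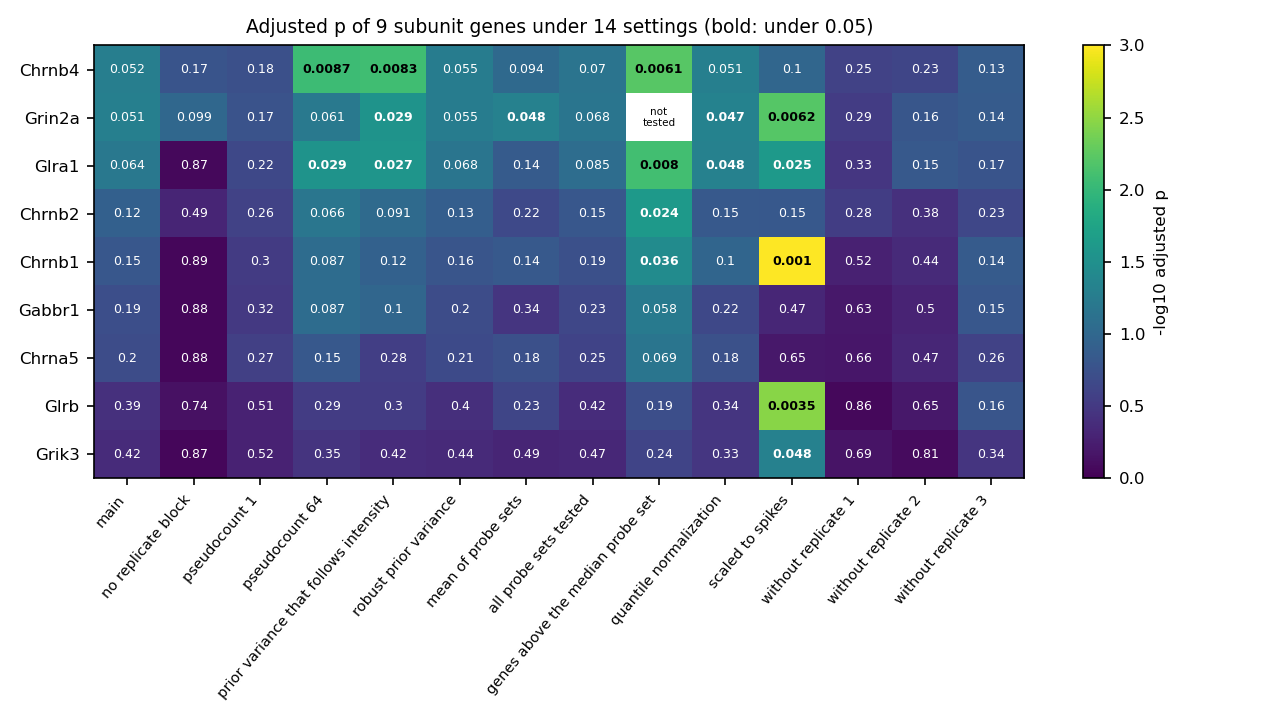
Adjusted p of 9 receptor genes (rows) in the limma fit described and in 13 alternative settings (columns), with colour for -log10 of the adjusted p and bold print under 0.05. Chrnb4, Grin2a and Glra1 lie near the threshold in the fit described (0.052, 0.051 and 0.064) and cross it in some columns, and none of the 9 genes passes without the replicate block or with a replicate left out.

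How many members passed moved with the setting, as did the count over all genes. With a pseudocount of 64, Chrnb4 and Glra1 passed, when 4.57% of all genes did. With a prior variance that follows intensity, Chrnb4, Glra1 and Grin2a passed, against 4.90% of all genes. With the mean of a gene's probe sets, Grin2a passed, against 1.18%, and with quantile normalization Glra1 and Grin2a passed, against 1.48%. Among the 19 members above the median probe set 4 passed, Chrnb2, Chrnb4 and Glra1 higher and Chrnb1 lower, against 8.30% of the genes tested there. With arrays scaled to the hybridization spikes 5 passed, Glra1 and Grin2a higher and Chrnb1, Glrb and Grik3 lower, against 9.93% of all genes.

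Proteins that assemble, traffic or anchor these receptors were read from a list of 50 genes, of which 46 were measured. Of these 1 passed, Tmem35a, and the list's median fold change was 0.02, where that of all genes was -0.01. Tmem35a encodes NACHO, a chaperone that neuronal nicotinic receptors need for assembly. It read 58.5, 37.3 and 31.2 on RA arrays and 155, 92.7 and 115 on Ag1.3 arrays. All Ag1.3 arrays were above all RA arrays, and Tmem35a rose by 1.23 (SE 0.11, adjusted p = 0.013 by limma). Its adjusted p was 0.071, 0.050 and 0.057 without replicates 1, 2 and 3, so the call was lost each time, and was 0.12 without the replicate block, with fold changes from 0.79 to 1.51 over all alternatives. Of receptors for other transmitters and peptides, 45 of 58 listed were measured, with a median of 0.03 and 1 that passed. This was Cnr1, the main cannabinoid receptor of neurons, which read 77.0, 49.3 and 69.9 on RA arrays and 215, 162 and 167 on Ag1.3 arrays. The groups lay far apart, and Cnr1 rose by 1.28 (SE 0.096, adjusted p = 0.010 by limma, 0.061 without replicate 1, 0.052 without replicate 2 and 0.046 without replicate 3). A second Cnr1 probe set read 77.7, 84.0 and 74.8 on RA arrays and 93.2, 90.1 and 78.1 on Ag1.3 arrays. Its groups overlapped at a fold change of 0.12 (unadjusted p = 0.20), and the mean of both probe sets gave 0.70 (adjusted p = 0.027).

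Genes for the synthesis, vesicle loading, uptake or breakdown of the transmitters, here called supply, were read beside their receptors. Of 5 genes for acetylcholine supply, Slc18a3, the vesicular acetylcholine transporter, passed. It read 16.5, 8.57 and 15.4 on RA arrays, within the background range, and 165, 118 and 89.8 on Ag1.3 arrays. All Ag1.3 arrays were far above, and Slc18a3 rose by 2.22 (SE 0.16, adjusted p = 0.0097 by limma, 0.051 without replicate 2 and 0.030 to 0.038 without another). The geometric mean of its Ag1.3 levels was 5.81 times the background limit. The median of the 5 genes was 0.35. Of 7 genes for GABA and glycine supply none passed by limma, 1 had an unadjusted p under 0.05, and the median was 0.13. Gad1 and Slc6a11 were close to background in both groups. The median was -0.01 with the mean of probe sets. With arrays scaled to the spikes it was 0.03, when that of all genes was -0.16. The genes of this list with lowest p were Abat, a GABA-degrading enzyme, at 0.36 (adjusted p = 0.26), and the glycine transporter gene Slc6a5 at 0.17 (adjusted p = 0.39). Of 6 genes for glutamate supply none passed by limma, and the median was 0.19. An unadjusted p under 0.05 was found for 3 of them, against 14.9% of all genes. With arrays scaled to the spikes the median of these 6 genes was 0.04 and 3 were above 0. This list was led by the glutamate uptake genes Slc1a2 at 0.53 (adjusted p = 0.10 by limma) and Slc1a3 at 0.32 (adjusted p = 0.13). Slc1a2 is also on the astrocyte and oligodendrocyte list. Of the chloride transporters that set the direction of GABA and glycine currents, Slc12a5, the neuronal exporter KCC2, read 74.6, 90.2 and 77.8 on RA arrays and 146, 138 and 162 on Ag1.3 arrays. It rose by 0.77 (SE 0.10, adjusted p = 0.039 by limma), but the call was lost with each replicate left out (0.089 to 0.22). Its other probe set was close to background in both groups, at -0.16. The importer gene Slc12a2 stood at -0.05.

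**Figure D5:**
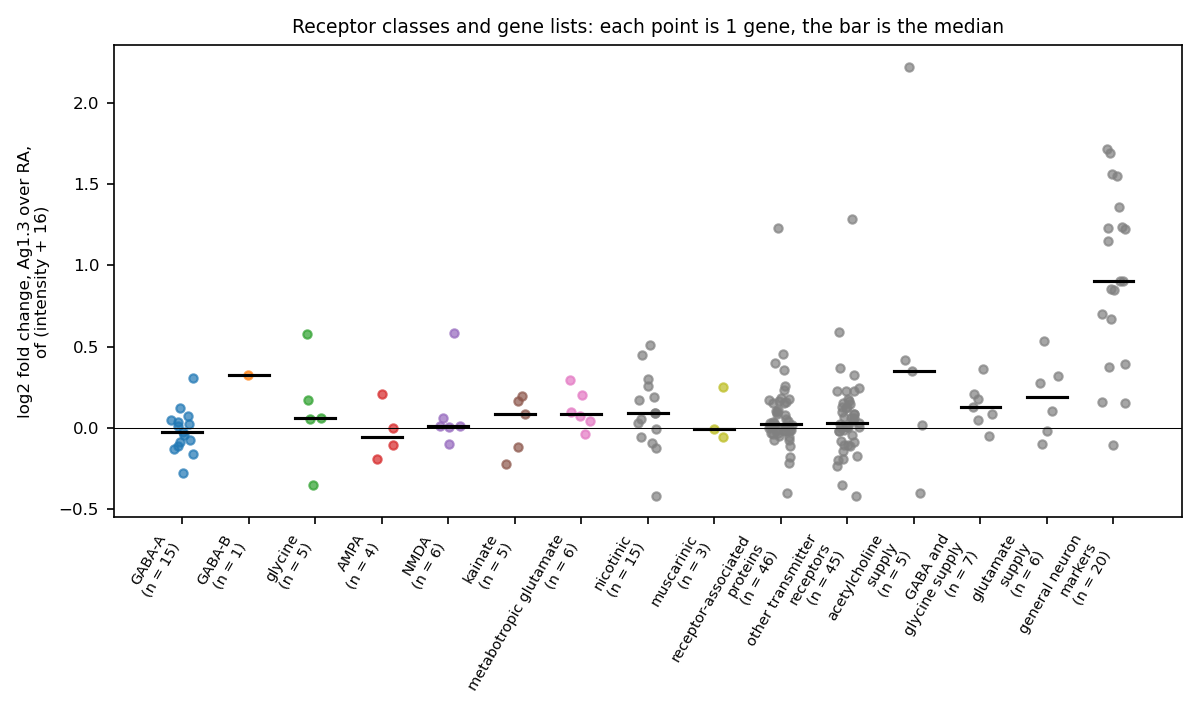
Log2 fold change (y axis, Ag1.3 over RA, of intensity + 16) of each gene of the 9 receptor classes and of 6 lists, with 1 point per gene and a bar at the median. The receptor classes have medians from -0.06 to 0.09, except GABA-B with its 1 gene at 0.32, and receptor-associated proteins have a median of 0.02, while the 20 general neuron markers centre at 0.90.

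Markers of neurons rose in the same cultures. Of 20 general neuron markers, 12 rose and none fell, with a median of 0.90 and values of 1.70 for Elavl4, an RNA-binding protein of young neurons, 1.55 for Stmn2, a microtubule regulator of growing axons, and 1.36 for Ina, a neurofilament protein. Their summed intensity was 3447 to 5896 on RA arrays and 9056 to 13084 on Ag1.3 arrays, with no marker close to background. Of 10 motor neuron markers 5 rose, with a median of 0.87 and sums of 360 to 487 on RA and 1671 to 2460 on Ag1.3 arrays. Slc18a3, reported above for acetylcholine supply, was among these 5, and Chat is also on both lists. Without replicates 1, 2 and 3 in turn, 5, 3 and 5 neuron markers and 3, 2 and 4 motor neuron markers passed, and without the replicate block 5 and 5, while the medians stayed between 0.87 and 0.96 and between 0.74 and 0.98. With a pseudocount of 1 none of either list passed by limma, as none of all genes did. The part of these cell types in the receptor values was not tested. The other marker lists had medians from -0.65 (8 pluripotency genes, 1 of which fell) to 0.18 (11 neural progenitor genes, 1 of which rose). All 8 pluripotency genes had fold changes below 0, and over the alternatives 0 to 7 of them passed. An unadjusted p under 0.05 by limma was found for 7 of these 8 and for 5 of the 11 progenitor genes, against 14.9% of all genes. Between -0.65 and 0.18 lay the dorsal and intermediate interneuron list (-0.10, with 2 of 11 lower past the threshold). So did the V2 and V3 interneuron list (-0.01, 0 of 7, with 3 of unadjusted p under 0.05). The astrocyte and oligodendrocyte list (-0.04, 0 of 10, with 2), the neural crest and peripheral neuron list (0.07, 0 of 10, with 3) and the microglia and blood list (0.02, 0 of 7, with 0) had no gene past limma's threshold. The endoderm list stood at -0.03 and had 2 of 10 genes that fell and 4 of unadjusted p under 0.05. The calls in the pluripotency, progenitor and endoderm lists were lost with any replicate left out. That of Pax7 and those of the dorsal and intermediate list were lost without replicate 1 or 2. Without the replicate block or with a pseudocount of 1 the calls of all these lists were lost. The Pax7 call was also lost with a robust prior variance, the mean of probe sets and quantile normalization. With all probe sets tested the Pax7 call and the pluripotency call were lost.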

How the data were processed

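RNA of 6 cultures was measured on 6 arrays, 3 per group. The deposited values are linear intensities, 1 per probe set and array, and how the authors summarised and scaled them is not given in the sources used here. Of 45101 probe sets, 64 controls were left out, and 34945 had 1 gene symbol in the platform annotation, 932 several and 9160 none listed. Each of 18193 genes was read by the probe set whose mean was highest in log2(intensity + 16). All 60 members matched RefSeq (GRCm38.p6) by gene identifier.

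Genes were tested with limma 3.58.1 (lmFit, eBayes) in R 4.3.3, two-sided, with replicate number as the blocking term. The procedure was run on simulated data whose added changes were larger than any member's fold change in the fit described. That run therefore does not bear on changes of the members' size. The p-values measure the spread between 3 pairs of cultures of 1 cell line, and precision is limited by the number of arrays. Per the series' design text the cultures were paired. Deviations from the group means correlated at 0.54, 0.19 and 0.56 across genes for equal numbers, against -0.51 to 0.07 for others. Deviations within a group cancel out, so positive values for equal numbers push the others down and the contrast is partly built in. Replicates of a group did not duplicate each other. Hybridization spikes averaged 9.38 to 9.67 on RA and 9.70 to 9.78 on Ag1.3 arrays (log2), a shift of 0.19, so smaller fold changes depend on the scaling.

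Members and gene lists were chosen with earlier results of these data known. The naming rule took genes past the threshold, the 3 of highest mean and the 3 of lowest p in each class, genomic neighbours of these, and in each list up to 3 past the threshold or the 2 of lowest p. The remaining members are named, some with fold changes, to account for all 60. Alternatives varied the block, pseudocount, prior variance, probe sets, filter, scaling and replicates.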

Additional observations from a re-analysis of the deposited data

How the results depend on the processing

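Without the replicate block 86 genes passed and 0 receptor subunit genes, where the paired fit gave 252 and 0. Over all genes 0 passed with a pseudocount of 1 (2411 at an unadjusted p under 0.05), 831 with 64, 891 with a prior variance that follows intensity, 950 of 11441 above the median probe set, 1807 with arrays scaled to spikes, and 35 to 62 with a replicate left out. The share of passing genes that were higher was 77.4% in the fit described, 90.7% without the block, 56.9% with a pseudocount of 64, 57.8% with the intensity-following prior, 52.3% above the median probe set, 17.4% with spike scaling and 69.4% to 94.3% with a replicate left out. Receptor subunit genes that passed numbered 2 with a pseudocount of 64, 3 with the intensity-following prior and 1 with the mean of probe sets. They numbered 4 above the median probe set, 2 with quantile normalization, 5 with spike scaling and 0 with any replicate left out. By limma 7, 7 and 15 members had an unadjusted p under 0.05 without replicates 1, 2 and 3. Of all 18193 genes 1579, 1983 and 3031 did. The members' median of 0.040 became 0.092 above the median probe set, -0.038 with spike scaling, and -0.013 to 0.046 with a replicate left out. Of the 225 genes of the other lists 27 passed, which became 12 without the block, 0 with a pseudocount of 1 (the cause was not tested), 49 with 64, 48 with the intensity-following prior, 51 above the median probe set, 47 with spike scaling and 5 to 13 with a replicate left out. Restricting the test to brighter genes also lowers the number of tests, and leaving out a replicate leaves 4 arrays. For single genes 428 values stayed within 1 SE of the fit described, 82 moved further and 18 passed the threshold. Choosing the probe set by the untransformed mean and reading Chrna4 by its other probe sets were added after seeing the data, and the former gave 256 genes and 0 members.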
